A study of Mus musculus with 8 samples.

Results

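The genes of hyaluronan and versican turnover were examined in mouse ventricles at embryonic day 15.5. They are 10 genes chosen by symbol for their known roles, among the 53465 genes of the deposited table. The choice was made with earlier results of these data known. The genes are Has2, Ugdh, Vcan, Hapln1, Adamts1, Adamts5, Adamts9, Hyal1, Hyal2 and Cd44. All 10 passed the filter on low counts, which kept 15388 genes. RNA-seq covered 4 libraries labelled WT and 4 labelled Flox, whose genotype label is Nrg-1flox;Cdh5-CreERT2, with 1 ventricle per replicate according to the design text. There, Cre recombinase that tamoxifen switches on, driven by the endothelial Cdh5 promoter, is meant to delete floxed Nrg1 (neuregulin-1) in endothelial cells, so cells outside the endothelium keep the gene. The tamoxifen schedule, and whether the WT embryos carried the floxed allele or Cre, are not given in the sources used here. The labels do not say that the libraries came from separate litters, and p-values measure the spread between these libraries.

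Cardiac jelly is the matrix between endocardium and myocardium. It is rich in hyaluronan, a long sugar polymer made at the cell surface, and in versican, a chondroitin sulphate proteoglycan that binds hyaluronan. Link protein holds the pair together, ADAMTS proteases cut versican, and hyaluronidases cut hyaluronan. In the mouse this matrix supports the early growth of trabeculae and of the valve cushions, and it is broken down as trabeculation ends. Neuregulin-1 from the endocardium is known to act in trabeculation.

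The substrate site and the protease sites are shown first, because they are where the Vcan product meets those of Adamts1, Adamts5 and Adamts9. The coding bases of the versican bond that ADAMTS proteases cut lie in an exon of Vcan (GRCm38, chr13:89693209-89693238, minus strand). Capitals mark the glutamate and alanine codons on either side of the bond. The site is in 2 of the 8 protein-coding transcripts of the gene, and the gene-level counts do not separate these from the others.
Vcan: gacccggaagctgcaGAAGCTaggcgtggc

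The coding bases of the zinc-binding site of the 3 proteases follow, with the codons of the zinc-binding histidines in capitals. In each gene an intron interrupts these 36 bases. They span chr16:85799188-85799545 for Adamts1, chr16:85878012-85887826 for Adamts5 and chr6:92905282-92908493 for Adamts9, all on the minus strand of GRCm38. The site is in all coding transcripts of Adamts1 and Adamts5 but in only 1 of the 2 of Adamts9, which the gene-level counts do not separate either.
Adamts1: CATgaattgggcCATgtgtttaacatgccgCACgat
Adamts5: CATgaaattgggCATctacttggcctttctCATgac
Adamts9: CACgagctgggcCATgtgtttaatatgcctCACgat
Adamts1 and Adamts9 shared 31 of the 36 bases, Adamts1 and Adamts5 22, and Adamts5 and Adamts9 20.

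As the targeted gene, Nrg1 was examined before the members. It stood at 5.46, 4.64, 4.08 and 5.31 CPM (counts scaled to the effective library size) in WT libraries 1 to 4 and at 6.82, 6.33, 6.16 and 5.36 CPM in Flox-labelled libraries 1 to 4. The log2 fold change was 0.34 (SE 0.12, edgeR's adjusted p = 0.311), so its mean was above that of WT under the Flox label, and each direction below is that of the label. Library totals ranged from 16761763 to 24144272 expected counts. In 7 of the 8 libraries more than 20 counts of both Xist and 4 summed Y-linked genes were found, although each is described as 1 ventricle. WT library 4 stood apart with Xist at 0.18 CPM. The Y-linked sum ranged from 69.7 to 170.5 CPM in WT and from 42.3 to 121.5 CPM in Flox-labelled libraries. This level is partly tied to the label. A fit that includes it as a covariate therefore also takes up part of the group difference, and the 2 cannot be fully told apart.

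In the comparison of the groups, the mean of each of the 10 members was lower in the Flox-labelled libraries, with fitted changes from -0.98% for Adamts9 to -16.1% for Hapln1, and 0 of 10 passed edgeR's quasi-likelihood test at a false discovery rate (FDR) of 0.05. Over all tested genes, 0.526% were called, 0.312% higher and 0.214% lower under the Flox label. At an unadjusted p below 0.05 there were 2 members, Vcan and Hapln1, where 10.5% of all tested genes were that low. For 0 of the 10 members were the groups free of overlap, against 6.05% of all tested genes (2.98% lower and 3.07% higher). The median log2 fold change was -0.095 for the members and -0.001 for all tested genes, of which 50.6% were lower. Every member stayed lower under the other scalings, but Adamts1 turned to 0.025 and Ugdh to 0 once the Y-linked level entered the fit, and Adamts9 turned to 0.005 without WT library 3 and 0.004 without Flox-labelled library 4. DESeq2, and edgeR without the filter on low counts, called 1 member, Vcan, but they called 195 and 338 genes in all, against 81 as reported. The likelihood ratio test and limma voom called 0 members, among 242 and 57 genes called in all.

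**Figure D1:**
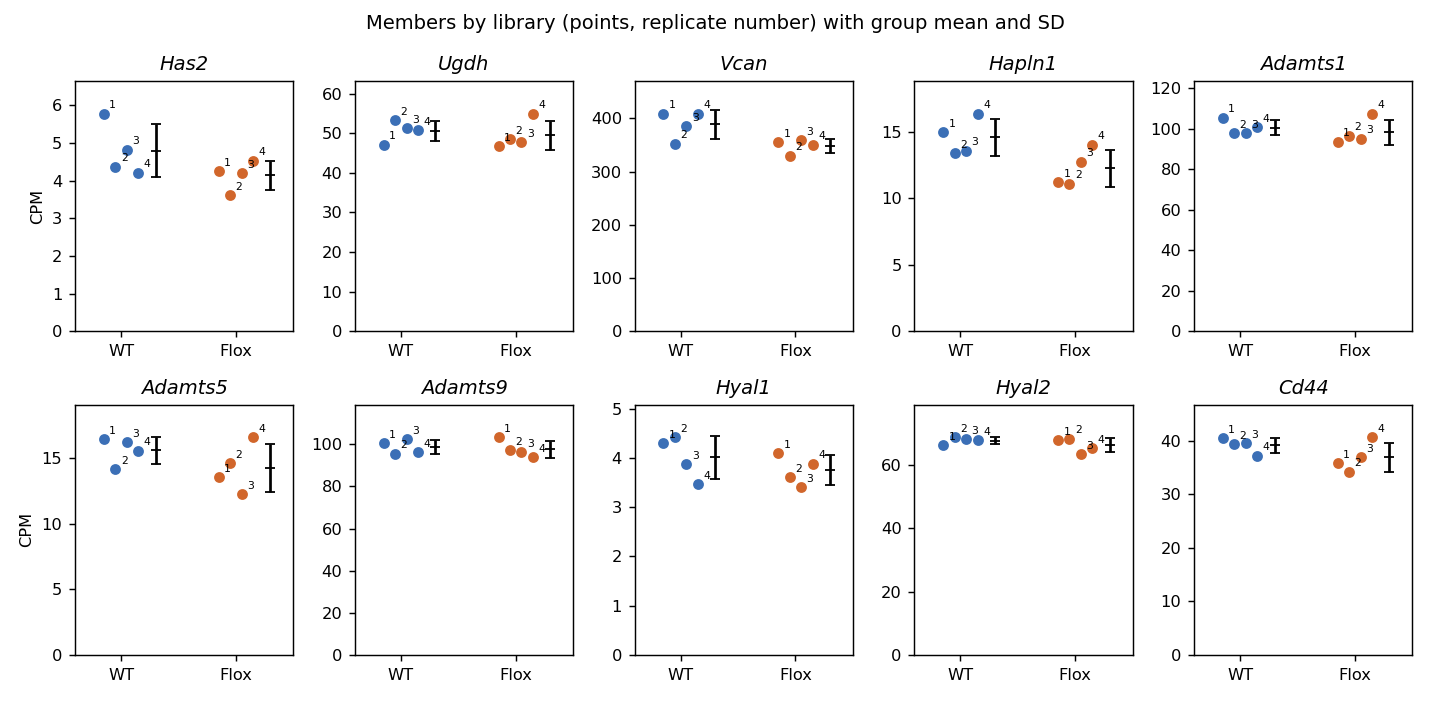
Level of each member in CPM (vertical axes, each from 0) in the 4 WT libraries (blue) and the 4 Flox-labelled libraries (orange), with the replicate number beside each point and the group mean ± SD in black. In every panel at least 1 library of a group lies within the range of the other group.

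Vcan (ENSMUSG00000021614, GRCm38 chromosome 13, 89655312 to 89742509, minus strand) encodes versican, and it had the smallest p of the members. Its level was 409, 353, 385 and 409 CPM across WT 1 to 4. In Flox-labelled libraries 1 to 4 it was 355, 330, 359 and 351 CPM. WT library 2 was the only WT library inside the range of the Flox-labelled libraries. The means were 389 ± 26.6 and 349 ± 12.9 CPM (SD, n = 4). The log2 fold change, -0.16 with SE 0.0472 and edgeR's adjusted p = 0.207, had a 95% confidence interval of -0.26 to -0.06. The gene was well covered, with 5956 to 9313 counts per library. At the mean WT count the counting error was 1.07%, against a spread of 6.83% between WT libraries. Without WT library 2 the log2 fold change was -0.20 (adjusted p = 0.0845), and without WT library 4 it was -0.13 (adjusted p = 0.434). With the replicate number as a block it was -0.16 (SE 0.0335, adjusted p = 0.0787). Adding the Y-linked level to the fit gave -0.085 (adjusted p = 0.624), and by DESeq2 -0.16 (adjusted p = 0.048).

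Hapln1 (ENSMUSG00000021613, chromosome 13, 89539796 to 89611652, plus strand) encodes the link protein that fastens versican to hyaluronan, and it is the neighbour of Vcan on the chromosome. It stood at 14.9, 13.4, 13.6 and 16.3 CPM across WT 1 to 4. In Flox-labelled libraries 1 to 4 it stood at 11.2, 11.1, 12.7 and 14.0 CPM. Thus 3 of the 4 Flox-labelled libraries were below all WT libraries, and Flox-labelled library 4 was above WT libraries 2 and 3. The log2 fold change was -0.25 (SE 0.0925, edgeR's adjusted p = 0.335), the largest of the members, with a 95% confidence interval of -0.45 to -0.05. It was -0.32 without Flox-labelled library 4, -0.19 without WT library 4 and -0.094 with the Y-linked covariate (adjusted p = 0.809). The ratio of Hapln1 to Vcan CPM was 0.0374 ± 0.00202 in WT and 0.0351 ± 0.00363 in Flox-labelled libraries (SD, n = 4).

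Because these neighbours had the lowest p of the members, the 250 bases before their RefSeq start (GRCm38.p6) are shown, at chr13:89742513-89742762 on the minus strand for Vcan and chr13:89540386-89540635 on the plus strand for Hapln1. Both strands were searched for a TATA box (TATAAA), a GC box (GGGCGG), the TCF/LEF core (CTTTGA) and the RBPJ core (TGGGAA), and capitals mark the matches.
Vcan: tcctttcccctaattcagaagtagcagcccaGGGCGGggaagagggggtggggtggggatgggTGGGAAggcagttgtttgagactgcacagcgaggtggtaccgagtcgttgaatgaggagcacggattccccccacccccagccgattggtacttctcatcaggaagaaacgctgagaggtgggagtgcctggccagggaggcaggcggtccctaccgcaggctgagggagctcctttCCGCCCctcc
Hapln1: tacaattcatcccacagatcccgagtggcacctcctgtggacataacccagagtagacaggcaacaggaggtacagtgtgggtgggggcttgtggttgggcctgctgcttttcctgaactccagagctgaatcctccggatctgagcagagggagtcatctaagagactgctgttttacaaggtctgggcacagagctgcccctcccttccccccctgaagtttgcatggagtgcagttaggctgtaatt
The Vcan window held 2 GC boxes and 1 RBPJ core, and the Hapln1 window none of the 4 motifs. By the GENCODE positions given above, the Vcan window lies outside its gene. The Hapln1 window lies inside its gene, which starts at 89539796, so it is not the stretch before the first annotated base. Over 32851 windows of that length in the RefSeq table, 32.7% held a GC box, 21.6% an RBPJ core, 13.8% a TCF/LEF core and 12.4% a TATA box. GC content was 62.4% before Vcan and 54.4% before Hapln1. These letters describe the windows and were not tied to the counts.

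Of the genes that make hyaluronan, Has2 encodes the synthase that makes nearly all of it in the embryonic heart, and Ugdh the dehydrogenase that supplies UDP-glucuronic acid. Has2 (chromosome 15, 56665627 to 56694539) was at 5.78, 4.37, 4.82 and 4.22 CPM across WT 1 to 4. It was at 4.25, 3.61, 4.197 and 4.53 CPM in Flox-labelled libraries 1 to 4. WT library 1 was the highest of all, WT library 3 was above the Flox-labelled ones as well, and WT libraries 2 and 4 lay among them. The log2 fold change was -0.21 (SE 0.131, edgeR's adjusted p = 0.616), and it was -0.115 without WT library 1 and -0.131 with the Y-linked covariate. Has2 rests on only 77 to 125 counts per library. Its counting error was 9.63% at the mean WT count, against a spread of 14.7% between WT libraries. The 95% confidence interval ran from a change of -29.2% to 4.88%, so a moderate change could not be told from none in these libraries. Ugdh (chromosome 5, 65413221 to 65435949) was at 47.2, 53.3, 51.3 and 50.7 CPM across WT 1 to 4, against 46.7, 48.6, 47.7 and 55.0 CPM across Flox-labelled 1 to 4. Both its highest and its lowest value came from Flox-labelled libraries, and its log2 fold change was -0.04 (SE 0.0525, adjusted p = 0.879), or -0.086 without Flox-labelled library 4.

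**Figure D2:**
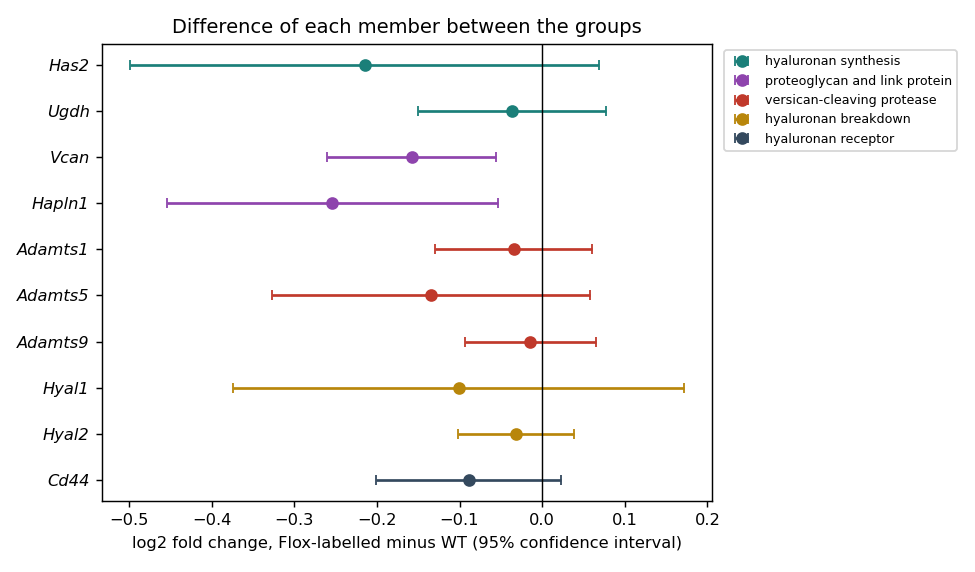
Log2 fold change of each member, Flox-labelled minus WT (horizontal axis), with its 95% confidence interval from edgeR, coloured by role. All 10 points lie below 0, and only the intervals of Vcan (-0.26 to -0.06) and Hapln1 (-0.45 to -0.05) leave out 0 before adjustment over all genes.

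The fitted changes of the versican-cleaving proteases lay between -0.13 and -0.01 on the log2 scale, and 0 of 3 passed. Adamts1 (chromosome 16, 85793827 to 85803113) was at 105, 97.6, 97.7 and 101 CPM across WT 1 to 4, against 93.6, 96.6, 95.002 and 107 CPM across Flox-labelled 1 to 4. Flox-labelled library 4 held the highest value of all, while the other 3 of its group were below each WT library. Its log2 fold change was -0.03 (SE 0.044, edgeR's adjusted p = 0.858). Adamts9 (chromosome 6, 92772699 to 92943492) was at 100.5, 95.6, 102 and 96.4 CPM across WT 1 to 4, against 103, 97.4, 96.3 and 93.8 CPM across Flox-labelled 1 to 4. Its values interleaved, with a log2 fold change of -0.01 (SE 0.0364, adjusted p = 0.942) and an interval from -6.25% to 4.58%. Adamts5 (chromosome 16, 85856173 to 85901828), the neighbour of Adamts1, was at 16.5, 14.2, 16.2 and 15.6 CPM across WT 1 to 4, against 13.5, 14.6, 12.3 and 16.6 CPM across Flox-labelled 1 to 4. Flox-labelled library 4 was again the highest of all, and the log2 fold change was -0.13 (SE 0.0887, adjusted p = 0.649), or -0.21 without that library. It was -0.068 without Flox-labelled library 3 and -0.023 (adjusted p = 0.97) with the Y-linked covariate.

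The ratio of Adamts1 to Vcan CPM was 0.258, 0.277, 0.254 and 0.2465 in WT libraries 1 to 4 and 0.263, 0.293, 0.265 and 0.306 in Flox-labelled libraries 1 to 4. That of Adamts9 to Vcan was 0.246, 0.271, 0.266 and 0.236 in WT and 0.291, 0.295, 0.269 and 0.268 in Flox-labelled libraries. In both ratios WT library 2, which had the lowest Vcan of its group, lay within the range of the Flox-labelled libraries. These ratios repeat the lower Vcan and were not tested by themselves.

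The hyaluronidases Hyal1 and Hyal2 lie side by side on chromosome 9. Hyal2 (107567945 to 107572779), which is anchored at the cell surface and cuts long hyaluronan, was at 66.3, 68.7, 68.0 and 67.7 CPM across WT 1 to 4, against 67.7, 68.3, 63.4 and 65.3 CPM across Flox-labelled 1 to 4. It was the steadiest member, with a spread of 1.49% between WT libraries, and its interval ran from -6.83% to 2.73%. Its log2 fold change was -0.03 (SE 0.0325, edgeR's adjusted p = 0.808), from -0.05 with the Y-linked covariate to -0.011 without Flox-labelled library 3. Hyal1 (107576927 to 107581710), a lysosomal hyaluronidase, was at 4.30, 4.42, 3.87 and 3.47 CPM across WT 1 to 4, against 4.09, 3.61, 3.40 and 3.88 CPM across Flox-labelled 1 to 4. The groups overlapped, and the log2 fold change was -0.10 (SE 0.126, adjusted p = 0.853), from -0.163 without WT library 4 to -0.052 without WT library 2. Hyal1 shares 1920 exonic bases, 50.8% of its exons, with Naa80 on the same strand, and its counts of 66 to 100 per library were not whole in 8 of 8 libraries, so how its reads were divided is uncertain.

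Cd44 (chromosome 2, 102811141 to 102901665) encodes the main hyaluronan receptor of the cell surface. It was at 40.6, 39.3, 39.5 and 37.2 CPM across WT 1 to 4, against 35.8, 34.2, 36.9 and 40.7 CPM across Flox-labelled 1 to 4. As with Adamts1, 3 of the Flox-labelled libraries were below every WT library, and Flox-labelled library 4 was above them. For Cd44 the log2 fold change was -0.09 (SE 0.0517, edgeR's adjusted p = 0.596), and without Flox-labelled library 4 it was -0.135 (adjusted p = 0.231). It was -0.051 without Flox-labelled library 2 and -0.039 (adjusted p = 0.9) with the Y-linked covariate.

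To compare levels between genes, CPM was divided by the length in kilobases of all annotated exons of the gene together. That length can exceed the length of the mRNA present, so the order depends on it. In WT libraries the order was Vcan (26.9 ± 1.84 CPM per kb), Hyal2 (20.5 ± 0.307), Adamts1 (18.9 ± 0.7), Ugdh (7.497 ± 0.376), Adamts9 (6.56 ± 0.216), Cd44 (5.78 ± 0.208), Hapln1 (2.47 ± 0.234), Adamts5 (1.45 ± 0.095), Has2 (1.13 ± 0.166) and Hyal1 (1.06 ± 0.115), each as mean ± SD of CPM per kb, n = 4. The 7 leading genes did not overlap with the next in the order in WT libraries. Adamts5 overlapped with Has2, and Has2 with Hyal1, so these neighbours did not differ beyond their spread. The order in Flox-labelled libraries was the same except that Has2 (0.978 ± 0.0916 CPM per kb) came after Hyal1 (0.992 ± 0.0804 CPM per kb), within their spread. By this measure Vcan was above each protease in both groups, and Adamts1 was the highest protease of the 3.

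**Figure D3:**
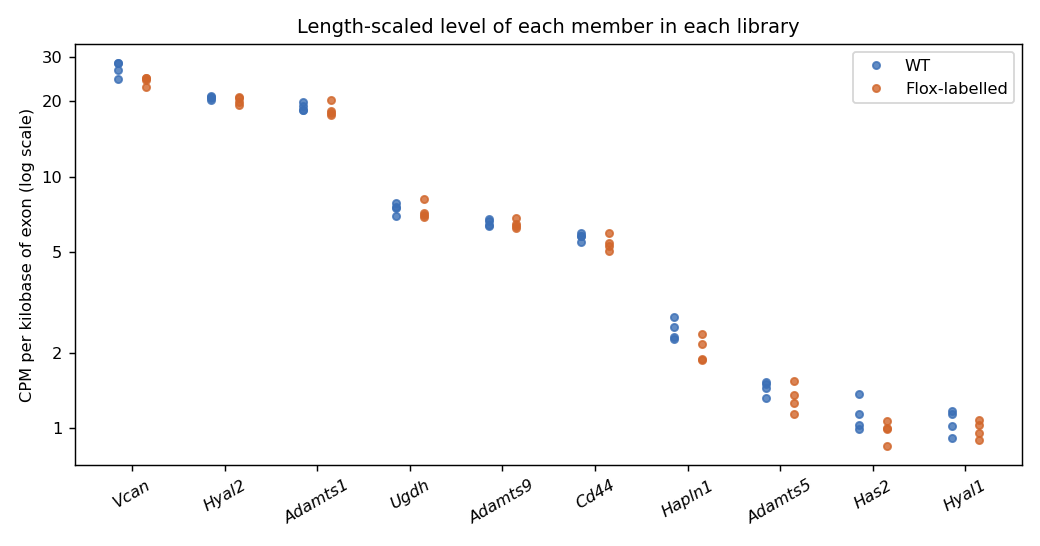
Level of each member in CPM per kilobase of exon (vertical log axis) in the 4 WT (blue) and 4 Flox-labelled (orange) libraries, ordered by the WT mean. The range runs from about 26.9 for Vcan to 1.06 for Hyal1 in WT, and Adamts5, Has2 and Hyal1 overlap at the low end.

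Among the members, 45 pairwise correlations of log2(CPM + 0.5) over the 8 libraries were computed, and Pearson's r ranged from -0.61 to 0.82. None passed after adjustment over the 45 pairs, and 5 had an unadjusted exact permutation p below 0.05. The highest was that of Has2 with Cd44, the synthase and receptor (r = 0.82, exact permutation p = 0.00833, adjusted 0.272; Spearman's rho = 0.86, exact permutation p = 0.0107, adjusted 0.161). It was 0.74 without the 2 libraries farthest from the median Has2, WT library 1 and Flox-labelled library 2. For Vcan with Hapln1, r was 0.82 (exact permutation p = 0.0162, adjusted 0.272) and rho 0.69 (exact permutation p = 0.0694, adjusted 0.374), with r of 0.54 without WT libraries 1 and 4. For Adamts1 with Adamts5, r was 0.80 (exact permutation p = 0.0181, adjusted 0.272) and rho 0.93 (exact permutation p = 0.00223, adjusted 0.1), with r of 0.71 without WT library 1 and Flox-labelled library 4. For the rest of these 5 pairs r dropped further when the 2 farthest libraries were left out. Has2 with Vcan had r = 0.70 (exact permutation p = 0.0458, adjusted 0.44) and rho = 0.33 (exact permutation p = 0.428, adjusted 0.799), and r was 0.06 without WT library 1 and Flox-labelled library 2, so that relation rests on those libraries. Adamts1 with Cd44 had r = 0.72 (exact permutation p = 0.0489, adjusted 0.44) and rho = 0.86 (exact permutation p = 0.0107, adjusted 0.161), and r was 0.37 without WT library 1 and Flox-labelled library 4. With the group means removed, r was 0.74 for Has2 and Cd44, 0.62 for Vcan and Hapln1, 0.79 for Adamts1 and Adamts5, 0.51 for Has2 and Vcan and 0.70 for Adamts1 and Cd44. Outside the members, the genes whose log2 CPM over the 8 libraries most resembled that of Vcan, among 12856 genes, were Wnt4 (r = 0.98), Med10 (r = 0.96) and Prdm11 (r = 0.95), given as a description of 8 libraries without a test.

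The rest of the pathway was taken from 7 lists of 90 symbols, of which 89 were in the table and 72 were tested. Here too 0 genes passed edgeR's test, and 12 of 72 had an unadjusted p below 0.05, against 10.5% of all tested genes. The groups did not overlap for 3 of 72, against 6.05% of all tested genes. DESeq2 called 2 (Fbln1 and Furin) of 195 genes it called in all, and the likelihood ratio test 2 (Acan and Furin) of 242. The log2 fold change was below 0 for 52 of 72 and above 0 for 20 genes, where 50.6% of all tested genes were below 0, and the median was -0.022. Among proteoglycans, link proteins and cross-linkers, 6 of 14 were tested and all 6 were below 0 (median -0.171). Acan, which encodes the related proteoglycan aggrecan, stood at 9.16, 7.59, 14.2 and 13.4 CPM across WT 1 to 4, against 4.85, 5.54, 7.09 and 8.59 CPM across Flox-labelled 1 to 4. Only Flox-labelled library 4 lay inside the WT range, and the log2 fold change was -0.78 (SE 0.208, adjusted p = 0.142). With the replicate number as a block it was -0.76 (adjusted p = 0.0165), and with the Y-linked covariate -0.37 (adjusted p = 0.576, the highest of its alternatives). Itih5 of the same list was at -0.10 (adjusted p = 0.789).

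In the list of other versican proteases, cofactors and inhibitors, 9 of 11 tested genes were below 0 (median -0.069). Furin encodes a convertase that cuts ADAMTS precursors. It was at 144, 136, 135 and 138 CPM across WT 1 to 4, against 126, 122, 119 and 132 CPM across Flox-labelled 1 to 4, without overlap (log2 fold change -0.15, SE 0.0368, edgeR's adjusted p = 0.1). Fbln1, whose product fibulin-1 is a cofactor of ADAMTS1 in versican cleavage, was at 144, 150.0, 147 and 156 CPM across WT 1 to 4, against 117, 131, 119 and 148 CPM across Flox-labelled 1 to 4 (log2 fold change -0.21, adjusted p = 0.184). Without Flox-labelled library 4, Furin was at -0.18 (adjusted p = 0.0368) and Fbln1 at -0.28 (adjusted p = 0.0134). Neither passed with the covariate.

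In the list of matrix proteins that bind versican, 7 of 8 tested genes were below 0 (median -0.057). Eln, which encodes elastin, ranged widely, at 967, 780, 1456 and 1250.3 CPM across WT 1 to 4, against 496, 638, 754 and 961 CPM across Flox-labelled 1 to 4. The groups overlapped, and the log2 fold change was -0.64 (SE 0.195, edgeR's adjusted p = 0.216), or -0.64 (adjusted p = 0.0313) with the replicate block and -0.295 (adjusted p = 0.651) with the Y-linked covariate. Mfap2, a microfibril protein, was at -0.15 (adjusted p = 0.414). Genes of hyaluronan precursors (3 above and 6 below 0, median -0.014) included Gnpnat1 at -0.13 (adjusted p = 0.505) and Gfpt2 at 0.06 (adjusted p = 0.897). Genes of hyaluronan breakdown and uptake (5 above and 5 below 0, median -0.002) included Layn, a hyaluronan receptor, at -0.25 (adjusted p = 0.334, groups without overlap) and Hmmr at 0.07 (adjusted p = 0.575). Of 19 tested chondroitin sulphate genes, 13 were below 0 (median -0.022), with Chst11 at -0.15 (adjusted p = 0.254) and Chpf at -0.08 (adjusted p = 0.434). Of 9 tested Cd44 partners, 6 were below 0 (median -0.009), with Msn at -0.07 (adjusted p = 0.415, groups without overlap). Spp1 of that list was at 14.9, 46.1, 58.2 and 8.96 CPM across WT 1 to 4, against 10.06, 8.56, 18.8 and 8.89 CPM across Flox-labelled 1 to 4. WT libraries 2 and 3 were the high ones, and the log2 fold change was -1.46 (adjusted p = 0.283), or -1.003 without WT library 3.

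**Figure D4:**
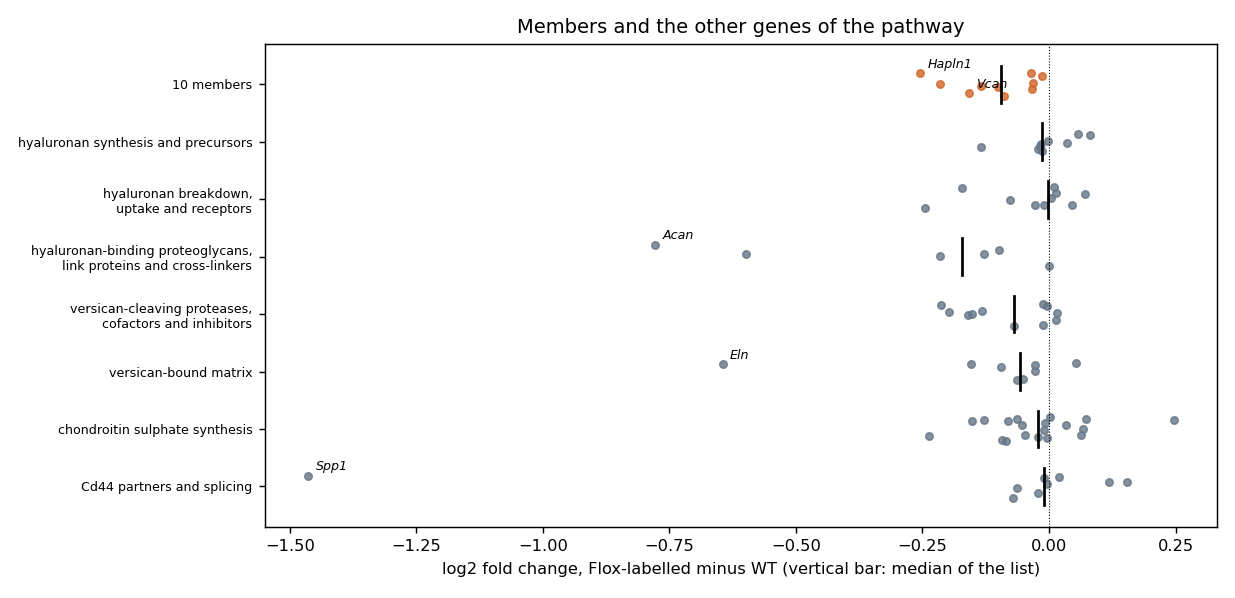
Log2 fold change, Flox-labelled minus WT (horizontal axis), of the 10 members (orange) and of the tested genes of the 7 other pathway lists (grey), 1 point a gene, with the list median as a vertical bar. The member median is -0.095, that of the proteoglycan and link protein list -0.171, and those of the other lists lie between -0.069 and -0.002.

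In these bulk samples, fewer cells of a type and less RNA per cell cannot be told apart, so marker levels are given beside the members. No marker gene was at 0. Cardiomyocyte markers had the highest sums of the 8 lists, and atrial markers were present in each library although the label is ventricles. Of 12 endocardial and endothelial markers, 10 were lower and 0 passed (Pecam1 -0.09, adjusted p = 0.357), and their summed level was 1414 to 1462 CPM in WT and 1322 to 1428 CPM in Flox-labelled libraries. Of these 12, 6 had an unadjusted p below 0.05 and 3 had groups without overlap, where 10.5% and 6.05% of all tested genes did. Those 3, named after their values were seen, were Kdr (-0.17, adjusted p = 0.0694), Tie1 (-0.17, adjusted p = 0.121) and Esam (-0.15, adjusted p = 0.0584), all lower under the Flox label. Emcn, also among the 6, was higher (0.18, adjusted p = 0.358). Of 12 cushion mesenchyme and fibroblast markers, 9 were lower and 0 passed (Postn -0.18, adjusted p = 0.225, and -0.082 with the Y-linked covariate), with sums of 5553 to 6557 and 5363 to 6487 CPM. Of 8 smooth muscle and mural markers, 6 were lower and 0 passed. An unadjusted p below 0.05 was found for 4, among them Acta2, which was higher under the Flox label. Their sums of 1870 to 1966 and 1944 to 2038 CPM are mostly Acta2 (0.12, adjusted p = 0.184; means 1308 and 1423 CPM). Their mean log2 CPM, which weights the genes equally, was 6.28 to 6.48 in WT and 6.22 to 6.33 in Flox-labelled libraries. Named after their values were seen, the pericyte genes Kcnj8 (-0.24, adjusted p = 0.0867, groups without overlap), Rgs5 (-0.26, adjusted p = 0.282) and Pdgfrb (-0.15, adjusted p = 0.254) had lower means. Of 8 atrial markers, 8 were lower and 1 passed, Kcnj3 (-0.46, adjusted p = 0.0261, and from 4.1e-05 to 0.111 over its alternatives), while Myl7 was at -0.13 (adjusted p = 0.475), with sums of 3189 to 4123 and 3124 to 3805 CPM. Of 8 epicardial markers, 7 were higher and 0 passed (Wt1 0.13, adjusted p = 0.613), with sums of 166 to 179 and 176 to 198 CPM. The 2 with an unadjusted p below 0.05, named after their values were seen, were both higher. They were Upk3b (0.15, adjusted p = 0.197, groups without overlap) and Tbx18 (0.12, adjusted p = 0.416). Of 10 cardiomyocyte markers, 6 were higher and 1 passed, Nkx2-5 (0.21, adjusted p = 0.0194; 0.08 and adjusted p = 0.284 with GC and length offsets), while Tnnt2 was at -0.02 (adjusted p = 0.923), with sums of 35178 to 40047 and 34774 to 40751 CPM. Macrophage sums were 116 to 164 and 126 to 185 CPM (7 of 10 genes higher, Csf1r 0.14, adjusted p = 0.648), and erythroid sums 4294 to 9395 and 5876 to 10010 CPM (7 of 8 higher, Hba-a1 -0.01, adjusted p = 0.996). The part of any of these in the member values was not tested.

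**Figure D5:**
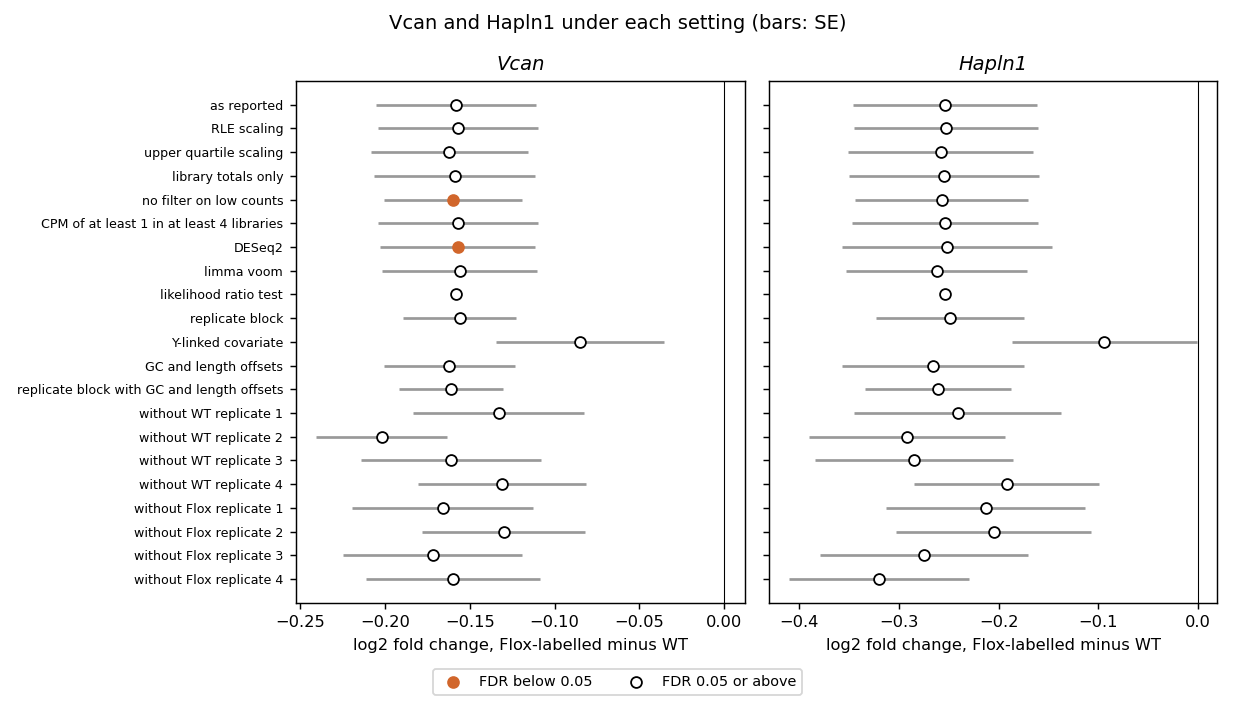
Log2 fold change of Vcan (left) and Hapln1 (right), Flox-labelled minus WT, as reported and under each of 20 alternatives (rows), with the SE as a bar where the method gives one. Filled points have an FDR below 0.05. Vcan ranges from -0.202 to -0.085 and is filled in 2 alternatives, and Hapln1 ranges from -0.32 to -0.094 and is filled in none.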

How the data were processed

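Polyadenylated RNA was made into directional libraries and sequenced as single reads, per the labels. The deposited values are expected counts that the authors made with RSEM for each Ensembl gene, unscaled, on GRCm38 with Ensembl release 91 by the table's name. The submitters' processing notes name cutadapt and RSEM 1.3.1. The aligner and the strand setting are not given in the sources used here. Of the values, 18.1% were not whole, and they were rounded. Symbols, positions and exonic lengths came from GENCODE M21 (53274 of 53465 identifiers matched). Promoters came from RefSeq, where 8 of the 10 members had an entry (not Has2 and Adamts5).

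Genes were filtered with filterByExpr, scaled by TMM (factors 0.988 to 1.015) and compared with edgeR 4.0.16 (glmQLFit, glmQLFTest, two-sided, group as the only term, Benjamini-Hochberg over 15388 genes, FDR 0.05) in R 4.3.3. limma 3.58.1 and DESeq2 1.42.0 were alternatives. Member correlations used log2 CPM with a pseudocount of 0.5 CPM. SE came from the F statistic. Counting errors cover counting only. The fit was tested on simulated data. Libraries of a group differed by more than sampling noise (lowest chi-square over its degrees of freedom, 3.04). Figures were drawn with matplotlib 3.10.9.

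The members and lists were chosen with earlier results of these data known. Besides the members and Nrg1, the genes named were, in each pathway list, those past FDR 0.05 or otherwise the 2 with the smallest p at a mean log2 CPM of at least 1. In each marker list they were those past FDR 0.05 and the first gene, and, for Vcan, the 3 genes of highest Pearson r. Further marker genes were named outside this rule, after their values were seen.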

Additional observations from a re-analysis of the deposited data

Results flagged for a closer look

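Of 70 groups of 4 values examined (the members, Nrg1 and the genes named by rule from the lists), 3 had 1 outlying value. By chance about 1 group in 20 would. None of the 3 concerned a member. Chst11 was at 40.72 CPM in Flox-labelled library 3, against 38.13 to 38.37 CPM in the others of its group. Spp1 was at 18.84 CPM in the same library, against 8.557 to 10.06 CPM. For Msn, WT library 2 held 422.7 CPM and the rest of WT 407 to 409.1 CPM.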

How the results depend on the processing

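The count of 0 members called was the same in each alternative except 2, where Vcan passed: without a filter on low counts (1 member, Vcan at -0.16, adjusted p = 0.0282) and with DESeq2 (1 member, adjusted p = 0.048). The cause of the shifts given here was not tested. Pathway genes called, 0 as reported, were 5 without a filter and 2 each with DESeq2, the likelihood ratio test, the replicate block, and the replicate block with GC and length offsets. Genes called in all, 81 as reported (48 higher, 33 lower), were 338 without a filter (154 and 184), 195 with DESeq2 (102 and 93), 242 with the likelihood ratio test (124 and 118), 190 at FDR 0.1 (95 and 95) and 16 with the Y-linked covariate (12 and 4). With limma voom 30 were higher, and with the replicate block plus GC and length offsets 30. Leaving out 1 library at a time gave 11 (without Flox-labelled library 3) to 142 genes (without Flox-labelled library 4), with 6 to 61 higher and 5 to 81 lower, 0 members and 0 to 2 pathway genes.

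With the Y-linked covariate, Adamts1 turned to 0.025, Gfpt2 to -0.056, Itih5 to 0.051 and Hba-a1 to 0.373. Hba-a1 also turned to 0.035 with limma voom, 0.041 with the replicate block, 0.003 with GC and length offsets and 0.044 with both. Leaving out 1 library, Adamts9 ranged from -0.04 to 0.005, Tnnt2 from -0.04 to 0.022 and Hba-a1 from -0.173 to 0.21.

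Same-numbered libraries shared only a number in the labels. The correlations of their deviations from the group means were low, at 0.0998, 0.0474, 0.0447 and 0.1206. Each was above all those of differently numbered libraries (-0.0877 to 0.0195), so a pairing by number cannot be set aside. The replicate block gave 93 calls, sharing 59 with the 81 as reported, and 0 members (Vcan adjusted p = 0.0787, Hapln1 adjusted p = 0.22). Depth limits Has2 and Hyal1 most, with counting errors of 9.63% and 10.5% at the mean WT count.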
